A study of Rattus norvegicus with 2 samples.

Results

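The cerebellar markers described here are 7 genes that mark neurons of the cerebellum or of the rhombic lip, the embryonic zone that produces many of them: Pcp2, Zic1, Pax6, Barhl1, En2, Fat2 and Cbln1. They were chosen by the gene name that the array files give, which found all 7 genes on 8 probes and 17 spots of 42877 rat spots. Of the 18823 genes with a symbol on the array, 15562 were counted, meaning that at least 1 probe was well above background on both arrays, and all 7 markers were among them. The dissected tissue was the nucleus tractus solitarius (NTS), the nucleus of the dorsal medulla where visceral afferents end, cut out over a stretch reaching 1.0 mm in front of the calamus scriptorius and 0.5 mm behind it. The rats were Wistar Kyoto animals of 9 weeks, untreated as far as the labels say. RNA of 5 males formed 1 pool and RNA of 5 females the other, with 1 single-colour array for each. With 1 array per sex there was no test and no replicate check, so every difference below compares 2 arrays and leaves out the spread between rats.

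The cerebellum lies over the dorsal medulla, across the fourth ventricle. Its cortex holds Purkinje cells, the inhibitory output neurons, and granule cells, the small excitatory neurons whose parallel fibres contact them. Granule cells come from the upper rhombic lip. The lower rhombic lip supplies precerebellar and cochlear neurons of the hindbrain, which share several of the same transcription factors, so most of these genes are markers of the cerebellum without being found in it alone.

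The probe sequences of Pcp2 and Zic1 are shown because these genes differed most between the pools, that of Pax6 as a probe that ends at a stop codon, and the single-spot probe of Fat2 because it was not well above background while the other Fat2 probe was. They are the 60-base probes of the array files, 5′ to 3′, with positions on the rat build rn4. Capitals mark a stop codon that closes an open frame at the end of the probe.

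Pcp2, chr12:2530446-2531535, plus strand: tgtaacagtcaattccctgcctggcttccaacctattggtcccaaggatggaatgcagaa

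Zic1, chr8:96317434-96317493, minus strand: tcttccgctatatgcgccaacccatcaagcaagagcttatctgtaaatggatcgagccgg

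Pax6, chr3:91148400-91148459, plus strand: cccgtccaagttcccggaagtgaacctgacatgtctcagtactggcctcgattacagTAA

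Fat2, chr10:40650329-40650388, minus strand: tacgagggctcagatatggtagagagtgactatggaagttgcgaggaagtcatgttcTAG

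The Pcp2 probe covers 1090 bases of genome with 60 bases, so by these coordinates it crosses a splice junction. The longest run of bases that any of the 8 probes shared with a probe of another gene, on either strand, was 15, for Barhl1. Their GC content ran from 35.0% for Cbln1 to 53.3% for Barhl1.

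All 7 genes were well above background on both arrays with at least 1 probe, and none differed 2-fold between the pools, a size that 0.109% of all genes reached towards the female pool and 0.424% towards the male pool. Zic1 and Pcp2 were lower in the female pool, by 1.40-fold and 1.33-fold, and Barhl1 and Fat2 were higher there by 1.27-fold each. Cbln1 and Pax6 were higher there by 1.11-fold and 1.09-fold, and En2 was at 1.01-fold. Differences are female minus male on the log2 scale, with each array set relative to its own 75th percentile, a processed signal of 3441 for males and 3380 for females. Scaling by spike-in RNA instead would shift all genes by 0.67 towards the female pool, which would put Zic1 at 0.19 and Pcp2 at 0.26, still below that shift. In bulk tissue, fewer cells of a type and less RNA per cell cannot be told apart.

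**Figure D1:**
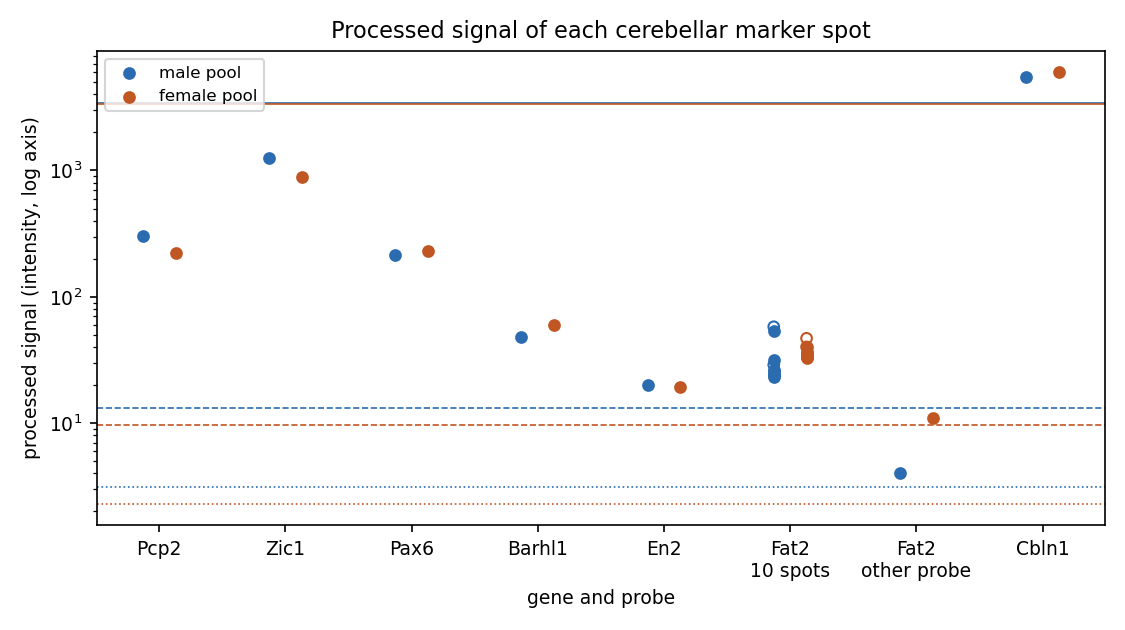
Processed signal (intensity, log axis) of every spot of the 8 probes, male pool in blue and female pool in orange, with open circles for spots that carry an outlier flag on either array. Solid lines mark the 75th percentile of each array, dashed lines the lowest signal well above background and dotted lines the median of the negative controls. The Cbln1 spots lie above the solid lines, En2 and Fat2 lie near the dashed lines, and the other Fat2 probe is not well above background.

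Pcp2, Purkinje cell protein 2, is a regulator of G protein signalling that in the brain is known almost exclusively from Purkinje cells. The male signal was 303.01 and the female signal 223.6, which differ by -0.41. Repeated spots of that brightness differed between the arrays with an SD of 0.089, and the error that the scanner software assigns to the 2 spots combines to an SD of 0.21, so the difference was 4.63 of the first and 2.01 of the second. Among the 3566 counted genes of the same brightness class, 4- to 16-fold below the 75th percentile, 3.51% differed by as much or more in either direction.

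The transcription factor genes came next. Zic1, a zinc finger factor of granule cell precursors and of the dorsal neural tube, had a male signal of 1264 and a female signal of 887.4. The difference of -0.48 was the largest of the 7 and amounted to 7.01 SDs of repeated spots and 2.38 SDs by the software's error. Only 0.977% of 7368 genes in its brightness class differed by as much. Pax6, a paired-box factor that granule neurons keep into adulthood, gave 213.5 in males and 228.9 in females, which differ by 0.13 where the SD of repeated spots is 0.089. As many as 39.4% of the genes in its class differed by as much.

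Barhl1, a homeobox factor of rhombic lip neurons, was dim, with 47.8 in males and 59.5 in females. Its difference of 0.34 was 2.27 SDs of repeated spots but 1.36 SDs by the software's error, and 11.9% of its class differed by as much. En2, the engrailed factor that patterns the boundary of midbrain and hindbrain and the cerebellum, gave 19.9 in males and 19.5 in females, which differ by -0.0081 where repeated spots have an SD of 0.27, and 98.1% of its class differed by as much. The lowest value called well above background was 13.1 for males and 9.59 for females. The 153 negative control spots had medians of 3.12 and 2.30 in that order. Their highest signals were 24.4 and 63.1, above En2 on both arrays and above Barhl1 and Fat2 on the female array.

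Fat2, a giant cadherin of granule cell parallel fibres, was measured by 2 probes that disagreed on whether it was detected. The probe printed above, which ends at a stop codon, gave 4.02 in males and 11.03 in females and did not pass as well above background in either. The other probe lies 1044 bases beyond it in the direction of transcription and was spotted 10 times. Left out were 2 spots with an outlier flag. The remaining 8 male signals ran from 23.3 to 53.5 around a median of 25.2, and the female signals from 32.6 to 39.7 around a median of 34.9. The mean difference was 0.35 with a spot SD of 0.44, and 7 of 8 spots were brighter on the female array.

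The exception was the spot in row 435, with 53.5 in males and 33.3 in females. It lies in 1 of 4 bands of array rows where dim spots were often brighter on the male array. Of the 2 flagged spots, the one in row 399, outside these bands, was also brighter in males, at 57.9 against 40.1. The one in row 266 was brighter in females, at 46.9 against 28.9. The spot in row 435 was then left out as the brightest male signal used. The other 7 spots had at most 31.6 in males and at least 32.6 in females, a gap that follows from that choice. Their mean difference was 0.49 with a spot SD of 0.18. Both mean differences, 0.35 and 0.49, describe repeated spots of the same labelled RNA. Of the 1792 genes in the dimmest class, 30.5% differed by 0.35 or more.

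**Figure D2:**
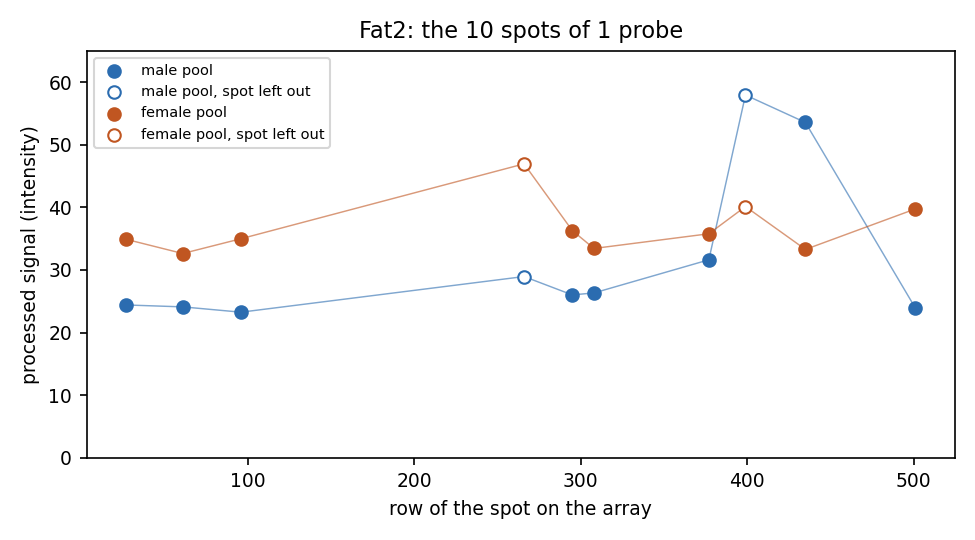
Processed signal (intensity) of the 10 spots of the repeated Fat2 probe against the row of the spot on the array, male pool in blue and female pool in orange, with open circles for the 2 spots left out. Male spots lie below female spots except at rows 399 and 435.

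Cbln1, cerebellin 1, is a secreted protein of granule cells that helps to hold the parallel fibre ending on the Purkinje cell, and it is also made by neurons outside the cerebellum. It was the only marker above the 75th percentile on both arrays, with 5511 in males and 5984 in females, which is 1.60-fold and 1.77-fold above it. The difference of 0.14 was 2.09 SDs of repeated spots and 0.709 SDs by the software's error, and 19.3% of its class differed by as much. Its spot lies in another of the 4 bands, and the local background of that spot carries an outlier flag on the female array.

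Across the 7 genes, 4 were higher in females and 3 in males. Their median was 0.13, beside a median of -0.014 over all 15562 counted genes, of which 45.7% were higher in females. It fell to 0.059 with normexp, and to the same value without the 4 bands or without spots of flagged local background, both of which drop Cbln1. Among probes brighter than the median probe it was -0.17, from Zic1 and Cbln1 alone. None reached 2-fold, which 0.533% of all genes did. A difference of over 2 SDs of repeated spots was seen for 4 of the 7, Zic1, Pcp2, Barhl1 and Cbln1, and for 19.9% of all genes. The markers did not move as a block. They spread over 0.83 from Zic1 to Fat2, a 1.78-fold range that no factor per array can change. Background correction did narrow it. With normexp Fat2 was at 0.075 and Barhl1 at 0.10, while Zic1 was at -0.44 and Cbln1 at 0.13. For scale, other Purkinje cell genes ran from -0.38 to 0.55, and other granule and unipolar brush cell genes from -0.23 to 0.24. Between the brighter markers, Cbln1 minus Zic1 was 0.63 and Pax6 minus Pcp2 was 0.54.

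Relatives of the markers were set beside them. For these and for the genes of later lists, the spot SD is that of repeated spots of the gene's brightness class. The 4 Zic genes compared, Zic1, Zic2, Zic4 and Zic5, were lower in the female pool, from -0.48 to -0.058, though with normexp background correction 1 of the 4 was at 0.0025, and with spike-in scaling all 4 were above 0 but below the shift of all genes. Zic4, the neighbour of Zic1 on chromosome 8 of the GRCr8 assembly, gave -0.14 at a spot SD of 0.069. Zic5 was dim and gave -0.34 at a spot SD of 0.15, and Zic2 gave -0.058. All 4 cerebellin genes, the marker Cbln1 among them, were higher in females with each scaling and background correction run. Cbln2 was at 0.12, Cbln4 at 0.23 and the granule cell form Cbln3 at 0.24. Of all counted genes 45.7% were higher in females. The single spots of Cbln1 and Cbln4 lie in the 4 bands. Without those bands only 2 of the cerebellin genes were left, both higher in females. Grid1, which encodes a receptor that cerebellins bind, gave -0.12 at a spot SD of 0.15.

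Of the Pax genes, Pax5 gave 0.53 at a spot SD of 0.069, Pax8 0.32 and Pax2 -0.0070. En1 gave -0.0023, and it was as dim as En2. Pax7 and Barhl2, the closest relative of Barhl1, were not well above background on either array.

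**Figure D3:**
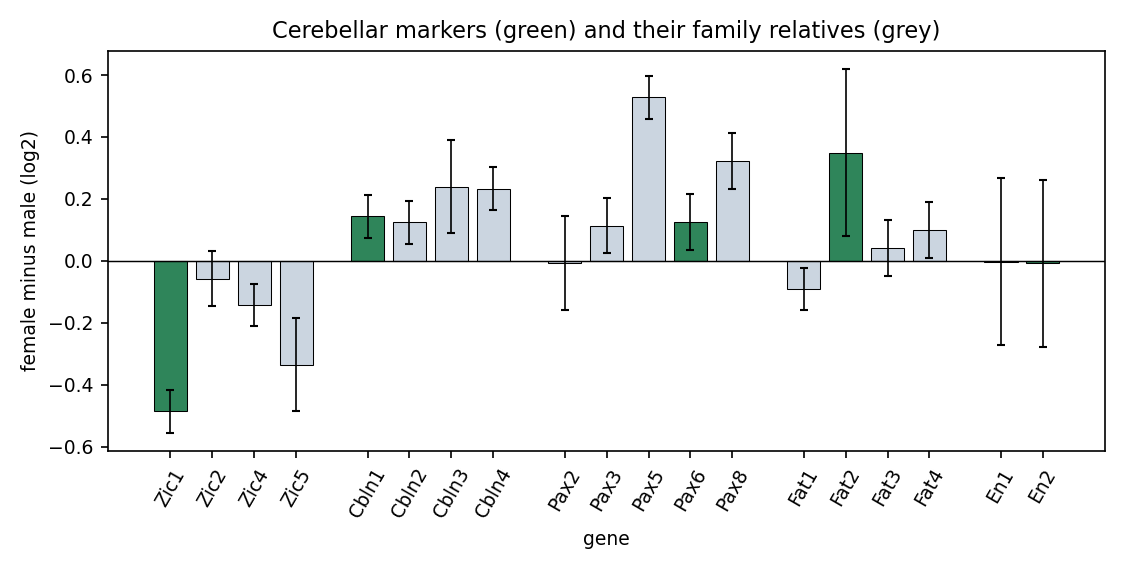
Difference between the pools (female minus male, log2) for the cerebellar markers in green and for relatives of their families in grey. Error bars are 1 SD of the difference over repeated spots of the same brightness class; the 4 Zic bars lie below 0 and all 4 cerebellin bars above it.

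The label was checked against other genes of the same cells. Of the other Purkinje cell genes, all 14 on the array were counted, with 7 higher in each pool and a median of -0.0012. Lhx1, a LIM homeobox factor, gave 0.55, and the synaptic scaffold gene Homer3 gave -0.38. Many of these genes are active in other brainstem neurons too.

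Of the other granule and unipolar brush cell genes, 13 of 16 on the array were counted, with a median of 0.0098. The largest differences were those of Cbln3 at 0.24, the GABA receptor subunit gene Gabrd at -0.23 and the glutamate receptor gene Grm4 at 0.22. The 3 genes not well above background on either array were Barhl2, Gabra6 and Slc17a7. Gabra6 encodes the GABA receptor subunit that defines mature granule cells, and Slc17a7 the vesicular glutamate transporter of their parallel fibres. Gabra6 gave 3.29 in males and 2.47 in females, near the negative control medians of 3.12 and 2.30, and Slc17a7 gave 4.63 and 9.63. Barhl2 gave 3.37 and 4.96. Each of these 3 genes has 1 probe with 1 spot.

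Bergmann glia, the radial astrocytes of the cerebellar cortex, share their genes with other astrocytes. All 7 listed genes were counted, 5 of them lower in females and with a median of -0.15, though all 7 were above 0 with spike-in scaling. The growth factor gene Gdf10 gave -0.55 over 10 spots, the Wnt inhibitor gene Wif1 -0.44 over 10 spots, and the fatty acid binding protein gene Fabp7 -0.24.

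Genes of the NTS and the caudal hindbrain were present. All 13 on the array were counted, with a median of 0.010, among them the noradrenaline synthesis gene Dbh at 34745 and 32900 and the hindbrain factor Hoxb5 at 73101 and 70392. The largest differences were those of the peptide gene Prlh at 0.62, Lmx1b at 0.23 and Hoxb3 at -0.21.

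Genes of tissues that adjoin both the medulla and the cerebellum, and of blood, differed in the direction of Zic1 and Pcp2. With spike-in scaling their medians turned to 0.41 for meninges, 0.45 for choroid plexus and 0.12 for red cells, each below the shift of all genes. Of the meningeal and fibroblast genes, 14 of 15 were lower in females and the median was -0.26, led by Col1a2 at -0.90, Aldh1a2 at -0.54 and Igfbp2 at -0.43. Their summed signal, in units of the 75th percentile, was 38.1 in males and 29.5 in females. Zic genes are also known from meninges. Of the choroid plexus genes, 12 of 14 were lower in females, with a median of -0.22 and sums of 16.4 and 14.1, led by Cldn2 at -1.84, Lbp at -0.91 and Aqp1 at -0.61. Of 6 red cell genes on the array, 5 were counted. All 5 were lower in females, with a median of -0.55 and sums of 40.5 and 30.3, led by Slc4a1 at -0.85 and Ahsp at -0.81. The other, Epb42, was well above background on the female array only, at 19.6 against 15.9 on the male array. Of the male sums, Ttr alone made up 93.4% for choroid plexus, Hbb 91.9% for red cells and Ptgds 39.3% for meninges. By definition every counted gene of these lists was well above background on both arrays. The part of these tissues in the differences of Zic1 and Pcp2 was not tested.

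**Figure D4:**
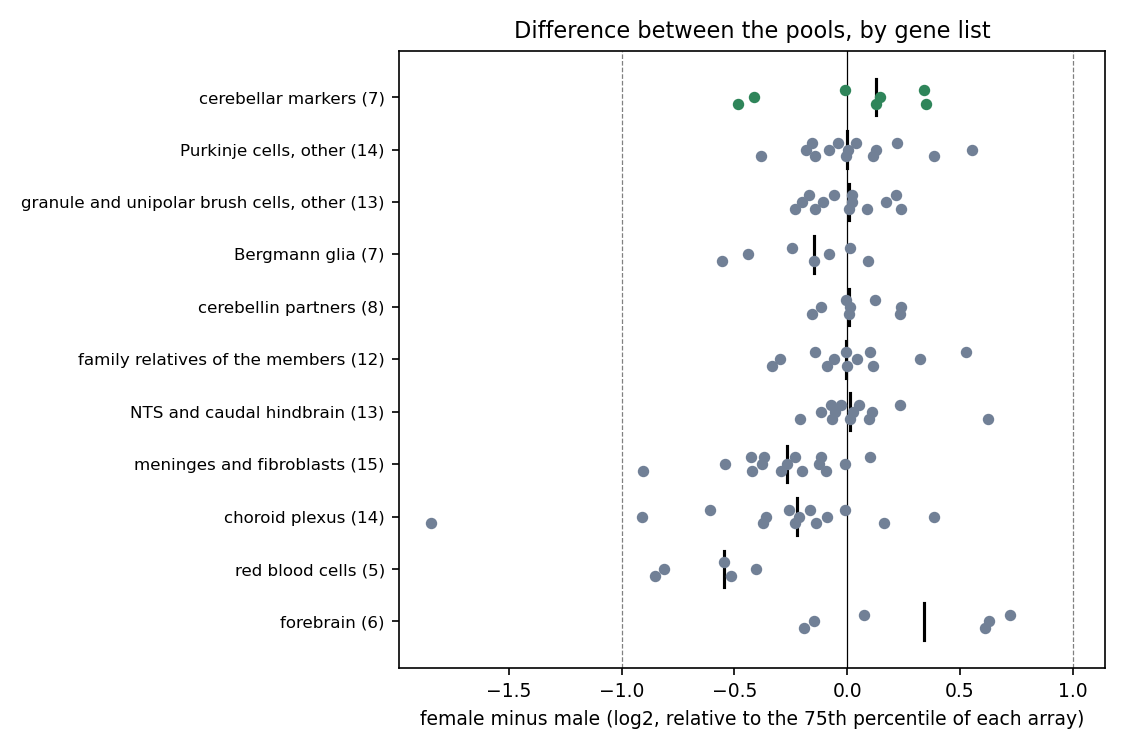
Difference between the pools (female minus male, log2) for each counted gene of 11 lists, with the number counted in brackets; black bars are list medians and dashed lines mark 2-fold. The cerebellar markers in green spread to both sides of 0, whereas the meningeal, choroid plexus and red cell medians lie on the male side at this scaling.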

How the data were processed

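Messenger RNA of 1 male and 1 female pool, each of 5 rats with 100 ng of RNA per rat, was measured on single-colour arrays, with 150 ng labelled per pool, per the labels' protocols. The deposited intensity values had their background subtracted and spatial trends removed, with no scaling across arrays, per the file headers, which name Agilent Feature Extraction 10.7.3.1; the submitters' processing notes name 9.1. In a second deposited table of intensity values, 1 factor per array separates each value from its processed signal, which was checked.

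Here log2 values of the processed signal were centred on the 75th percentile of the rat spots of each array. The 430 spots whose feature is flagged as an outlier in either pool were dropped. Spots of a probe were averaged, probes counted when 50% or more of their used spots passed as well above background in each pool, and genes took the median of their counted probes. No spot was saturated, and 85.5% of male and 87.9% of female rat spots passed. The number of arrays limits the precision.

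Technical error is the root mean square, over repeated probes, of the SD of the spot differences, by brightness class: 0.27 over 64-fold below the 75th percentile, then 0.15, 0.089 and 0.069. The 4 bands of rows named in the text (of 20) held more than 3 times the median band's percentage of dim spots at a male excess of 2-fold. The error leaves out differences between rats and labelling reactions. Symbols other than the markers' came from RefSeq GRCr8 through a probe's accession for 19793 probes, 2871 kept the array's symbol and 7703 had none. Normexp used limma 3.58.1. The averaging of spots into probes and genes was tested on simulated data, with planted differences larger than that of any marker. Centring, the removal of flagged spots and the technical error were not part of that test.

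Named genes are all 7 markers, the 3 largest differences of each list and the list members not well above background on either array. Dbh, Hoxb5, the Zic and cerebellin relatives, Pax2, En1, Grid1, Bcl11b, Nkx2-1, Ttr, Hbb and Ptgds were named after their values were seen. So were Six3 and Epb42, each well above background on the female array only. With 2 arrays, likeness of pattern was not ranked. The members and lists were chosen with earlier results of these data known. Some genes picked by this rule are not reported here. Besides 14 other settings, 2 were added after seeing the data (the median over spots, and leaving out spots with a flagged local background).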

Additional observations from a re-analysis of the deposited data

How the results depend on the processing

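No paired analysis was possible because each sex has 1 array. The median over the markers was 0.13, and it moved beyond the spot SD under 2 alternatives: 0.80 with spike-in scaling, and -0.17 among probes brighter than the median probe, where only Zic1 and Cbln1 were left. It was 0.059 with normexp, without the 4 bands, and without spots of flagged local background. Spike-in scaling adds 0.67 to the female pool for every gene by construction, which puts Pcp2 at 0.26, Zic1 at 0.19 and 2 markers, Barhl1 and Fat2, at 2-fold or more; no other scaling or filter put any marker there, and the count was 0 with a 1.5-fold or a 3-fold threshold too. In the other alternatives that kept the gene, Zic1 ranged from -0.48 to -0.44 and Pcp2 from -0.41 to -0.37. Cbln1 ranged from 0.13 to 0.18, and Pax6 from 0.059 to 0.17. The dim markers moved more. Barhl1 was at 0.10 with normexp, and Fat2 at 0.075 with normexp, 0.92 without a background filter and 0.50 with the median over spots. En2 changed sign, from -0.12 to 0.027. Cbln1 has no value without the 4 bands, which hold 20.6% of the rat spots, or when spots with a flagged local background are left out. Genes at 2-fold or more numbered 17 towards females and 66 towards males, against 582 and 17 with spike-in scaling, 5 and 18 with normexp, 212 and 158 when a probe had to pass in 1 pool only, 436 and 275 without a filter, and 4 and 12 among brighter probes. Leaving out the 4 bands gave 39 towards males, and the 3-fold threshold 2 and 20.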

Other observations

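Genes of the forebrain, a region far from the dissection, were looked at as a second regional list. Of 11 on the array, 6 were counted, and Emx2, Tbr1 and Dlx5 were among those not well above background on either array. Six3 was well above background on the female array only, at 40.04 against 9.64 on the male array, on 1 spot in 1 of the 4 bands. Neurod6, a factor of cortical pyramidal neurons, gave 65.9 in males and 106.8 in females, which differ by 0.72 at a spot SD of 0.15. Lhx2 gave 0.63 at a spot SD of 0.27. Bcl11b, with 711.6 in males and 611.8 in females, went the other way at -0.19 where the spot SD is 0.089, and Nkx2-1 gave -0.15. Of the 6, 4 were higher in females and 2 in males. The median of the 6 was 0.34, and 0.058 with normexp, and among brighter probes only Bcl11b was left. Neurod6 and Lhx2 were dim and were measured with 1 counted probe and 1 spot each.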
